A study of Mus musculus with 24 samples.

Results

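The 9 genes described here encode surface proteins with which white blood cells adhere to vessel walls and tissue and find their way to a site: the integrin chains Itgb7, Itga4, Itgb1, Itgb2 and Itgal, the selectin ligand Selplg, the hyaluronan receptor Cd44, and the chemokine receptors Cxcr4 and Ccr7. They were taken by gene name, and all array probes that carry 1 of the 9 names and are not control spots were taken: 17 of 39429 probes, for 9 of 30342 gene names. The 9 were chosen with earlier results of these data known, so their counts beside shares of all genes are a description, not a test. All 9 genes and 15 of the 17 probes passed the filter on dim probes, among 15059 genes and 19523 probes that did. The cells were the mouse leukaemia line DA1-3B, labelled Bcr-ABL+ and of strain C3H eOuJ. Every group carried a plasmid: an empty one (VOID), full-length p65/RelA, the NF-kB subunit (WT), p65/RelA with the change D361E, its N-terminal part (p1-361), its C-terminal part (p363-549 in the titles, 362-549 in the treatment text), or both parts together (p1-361+p363-549, called both fragments below). The 6 groups held 4 arrays each, 24 in all, of total RNA labelled with Cy3. The labels give a transfected plasmid but no separate cultures, no transfected share of cells and no selection, so any p-value rests on the variation among the 4 arrays of a group, which could be technical only. In bulk RNA, fewer cells that carry a transcript and less of it per cell cannot be told apart.

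Leukocytes leave the blood in steps. Selectins on the vessel wall catch glycosylated ligands such as the product of Selplg (PSGL-1), chemokine receptors then signal to integrins, and the integrins hold the cell firmly. Integrins are pairs of an alpha and a beta chain: Itga4 pairs with Itgb1 (VLA-4, which binds VCAM-1 and fibronectin) or with Itgb7 (which binds MAdCAM-1 of gut vessels), and Itgal pairs with Itgb2 (LFA-1, which binds ICAM-1). Cxcr4 is the receptor of Cxcl12, which keeps blood-forming cells in the bone marrow, Ccr7 is the receptor of Ccl19 and Ccl21 that leads cells to lymph nodes, and Cd44 binds hyaluronan. p65/RelA is a transcription factor whose N-terminal part binds DNA and whose C-terminal part activates transcription.

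Levels are given as log2 of the processed signal of a probe minus log2 of the 75th percentile of that signal on the same array, so 0 is the signal of that percentile, and 1 unit is a doubling. Levels of different probes are not compared, because probes differ in how well they bind. No spot was saturated, 49.4% to 55.5% of the spots of an array were well above background, and all 9 genes were so on all 24 arrays by the probe that stands for the gene. The genes that mark haematopoietic cells were present: 9 of 9 were well above background on all 24 arrays, including Ptprc and Csf2rb. Epcam, Krt8, Krt18 and Cdh1, which mark epithelium, were well above background on none. The other marker lists were mixed. Of 8 early myeloid markers, 3 were well above background on all 24 arrays, and Kit and Cebpa were so on none. The count on all 24 arrays was 5 of 8 for erythroid and megakaryocyte, 3 of 7 for mast cell and basophil and 2 of 6 for monocyte and macrophage markers. It was 4 of 7 for T and NK cell, 1 of 6 for B cell, 1 of 4 for endothelial and 0 of 6 for fibroblast markers. The 1 Rela probe starts at base 2648 of the transcript, and the labels do not say which plasmids hold that stretch. Its level differed from VOID by 0.40 in WT (limma adjusted p = 0.0795), 0.36 in D361E (0.127), 0.43 in p1-361 (0.0406), 0.49 in p363-549 (0.0161) and 0.47 with both fragments (0.00622), so the probe does not tell the plasmids from each other.

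Replicate 4 of each of the 3 fragment groups stood apart from its label. The arrays form 4 sets of consecutive sample numbers with 1 array of each group. The profile of an array over 200 genes that differed most among groups in the remaining 3 sets, none of them a member, was set beside the 6 group profiles of those sets by Pearson correlation, each gene centred on its mean over groups. By that measure 21 of 24 arrays were nearest to their own group and 3 were not. The array labelled p1-361 replicate 4 had r = 0.14 with its own group and 0.78 with p363-549. The array labelled p363-549 replicate 4 had r = -0.55 with its own group and 0.97 with both fragments, and that labelled both fragments replicate 4 had r = -0.09 with its own group and 0.71 with p1-361. All results keep the labels, and values without these 3 arrays, a choice made after the data were seen, are given beside them.

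Promoter sequence bears on these genes because the transfected protein binds DNA at kB sites, and 5 of the 9 genes were matched by symbol in the RefSeq promoter table (build GRCm38.p6): Itgb7, Cxcr4, Itga4, Cd44 and Itgb1. Windows of 300 bases were searched on both strands for the kB consensus, 10 bases long, and for GGGNNTTCC, a related form 9 bases long that overlaps it. The kB consensus was in 0 of 5 windows and in 5.8% of 32851 promoter windows of the same length. GGGNNTTCC was in 1 of 5, that of Itgb1, and in 5.82% of all windows. The match, in capitals, begins at base -164 from the start; it is a match of letters, not a binding site, and its absence elsewhere says nothing about the factor. Shown 5′ to 3′ are 250 bases before and 10 from the listed start for the 2 matched genes that fell in a comparison below, Itgb7 (chr15:102231926-102232185, minus strand; the listed start is not the outer edge of the gene) and Cxcr4 (chr1:128592290-128592549, minus strand), and for Itgb1 (chr8:128685404-128685663, plus strand), which holds the match.
Itgb7: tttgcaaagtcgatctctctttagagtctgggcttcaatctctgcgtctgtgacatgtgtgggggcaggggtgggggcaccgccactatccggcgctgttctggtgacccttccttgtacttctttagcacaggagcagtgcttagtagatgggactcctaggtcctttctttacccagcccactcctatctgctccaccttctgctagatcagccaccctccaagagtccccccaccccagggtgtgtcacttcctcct
Cxcr4: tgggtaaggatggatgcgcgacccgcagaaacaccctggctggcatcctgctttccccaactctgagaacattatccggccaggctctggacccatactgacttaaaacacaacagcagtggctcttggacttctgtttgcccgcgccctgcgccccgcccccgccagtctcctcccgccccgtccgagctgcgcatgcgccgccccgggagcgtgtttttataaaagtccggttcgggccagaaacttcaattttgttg
Itgb1: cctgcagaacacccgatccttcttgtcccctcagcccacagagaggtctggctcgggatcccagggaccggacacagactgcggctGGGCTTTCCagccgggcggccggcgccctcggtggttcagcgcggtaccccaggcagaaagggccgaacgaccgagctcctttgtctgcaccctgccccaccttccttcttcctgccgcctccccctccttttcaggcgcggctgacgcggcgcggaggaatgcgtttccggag

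The array probes are 60 bases long, and 4 genes (Itgb7, Itgb2, Cxcr4 and Ccr7) have 1 probe. The probes of the genes that fell lie, in build mm9 as the files give it, at chr15:102046450-102046509 (Itgb7, minus strand), chr5:114267807-114267834 (Selplg, minus strand), chr1:130485079-130485138 (Cxcr4, minus strand) and chr11:99005551-99005610 (Ccr7, minus strand). The listed Selplg interval covers 28 of the 60 bases. No mm9 annotation was used here, so whether a probe lies in coding sequence or in a UTR is not settled. Itga4 has a second probe whose 60 bases of transcript span 1131 bases of the genome (chr2:79153985-79155115, plus strand), so it crosses an intron. It is shown 5′ to 3′ because it repeats the array by array pattern of Itga4 described below.
Itga4: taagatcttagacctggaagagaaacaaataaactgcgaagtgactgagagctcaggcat

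Itgb7, Selplg, Cxcr4 and Ccr7 were lower with both fragments than with the empty plasmid, and Itgb7 was lower in all 3 fragment groups. No member passed the test as higher. In the F test for any difference among the 6 groups, fitted with limma across 15059 genes, 4 of 9 members passed at an adjusted p under 0.05: Itgb7 (0.000882), Cxcr4 (0.00483), Selplg (0.0234) and Ccr7 (0.0422), where 2.84% of all genes passed. In the 24 fits without 1 array, Itgb7 and Cxcr4 passed in all 24 and Selplg in 20, the exceptions being the fits without VOID replicate 2 or without both fragments replicate 1, 2 or 3. Ccr7 passed in 6 of them: without VOID replicate 1, D361E replicate 4, p1-361 replicate 4, p363-549 replicate 3, p363-549 replicate 4 or both fragments replicate 4. The adjusted p was 0.371 for Itga4 and 0.563 for Cd44, and between 0.847 and 0.987 for Itgb1, Itgb2 and Itgal. The group means of a gene were close to their neighbours in order: of 45 neighbouring pairs, 44 had arrays that overlapped, and the exception was Cxcr4 in VOID and p363-549.

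**Figure D1:**
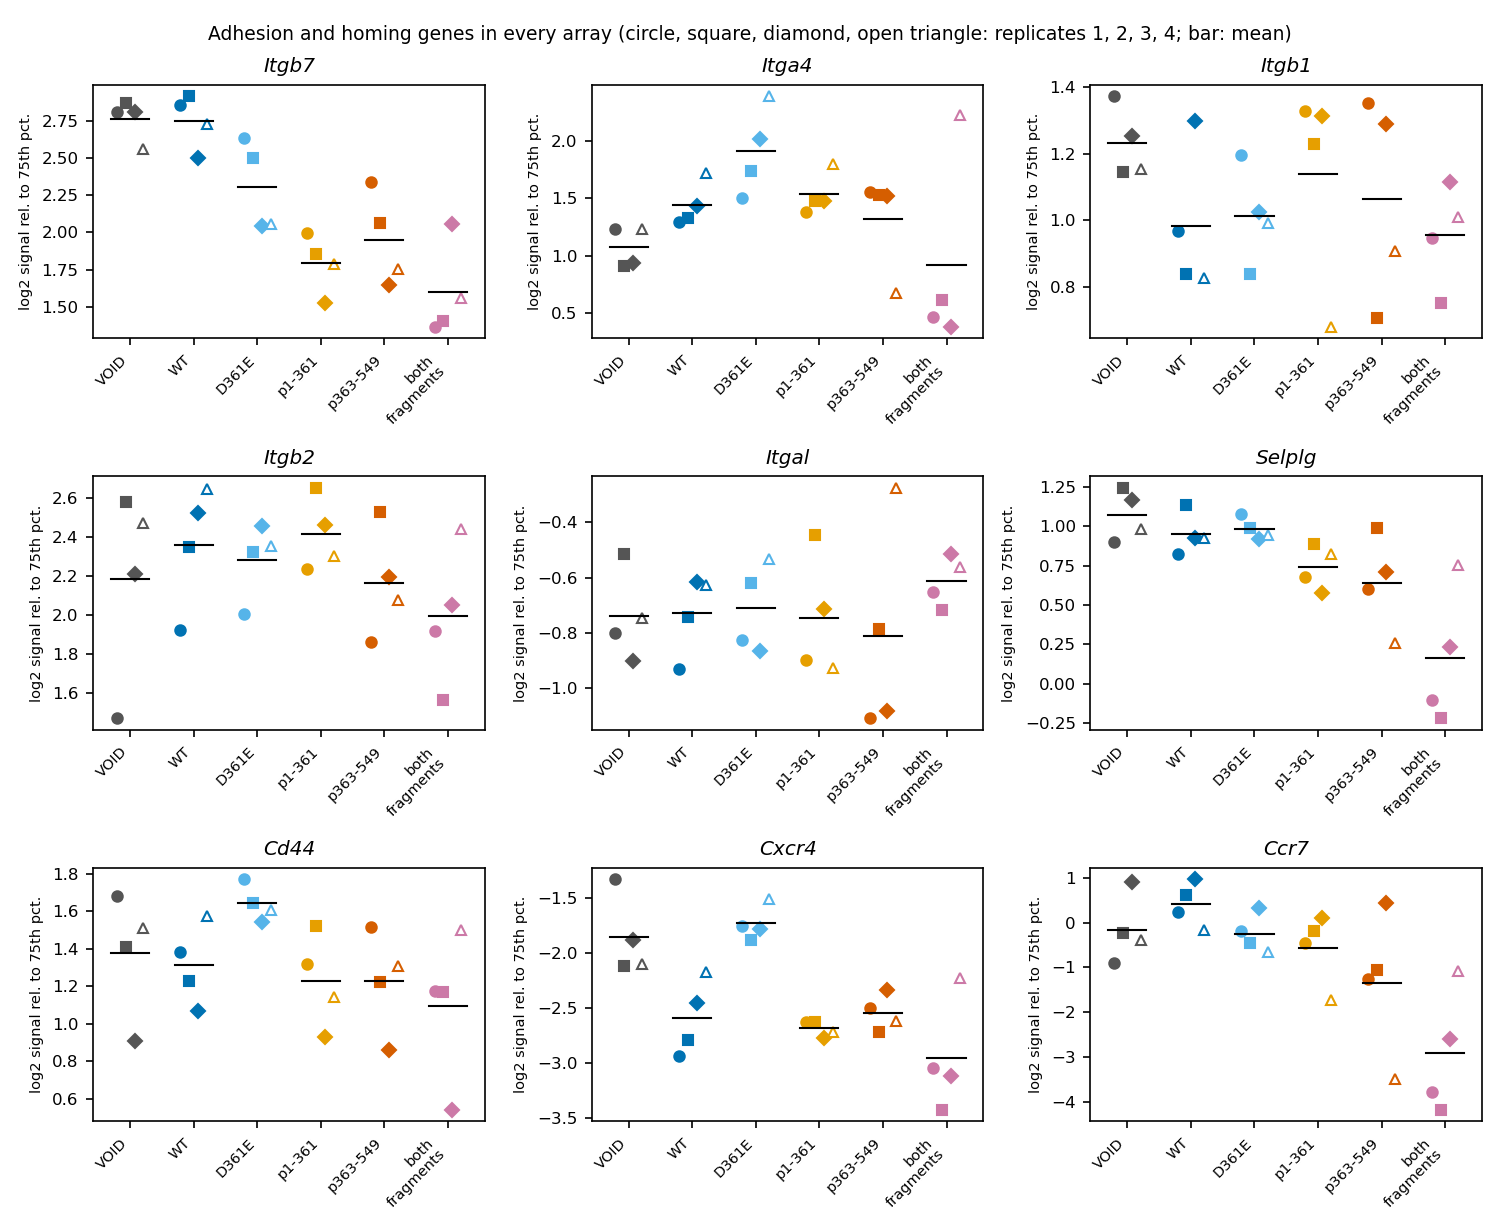
Each panel plots 1 gene, with the log2 signal relative to the 75th percentile of the array on the vertical axis and the 6 groups along the horizontal axis; points are the 4 arrays of a group and bars their means. Itgb7 steps down from VOID and WT to the 3 fragment groups, and the open triangles of the fragment groups, replicate 4, often lie away from the other 3 arrays, as for Itga4 at 2.22 with both fragments.

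Itgb7, the beta chain of the gut-homing integrin, was lower in all 3 fragment groups than in VOID. Its level was 2.81, 2.87, 2.80 and 2.56 on the VOID arrays and 2.85, 2.91, 2.50 and 2.73 on the WT arrays. It was 2.63, 2.50, 2.04 and 2.06 in D361E. These 3 groups overlapped, and D361E reached lower than VOID and WT. Itgb7 was at 2.00, 1.86, 1.53 and 1.79 in p1-361, at 2.34, 2.06, 1.65 and 1.75 in p363-549, and at 1.37, 1.41, 2.06 and 1.56 with both fragments. Every array of the fragment groups was below every VOID and every WT array.

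Against VOID, Itgb7 fell by 0.97 (SE 0.18, 1.95-fold, adjusted p = 0.00861, limma) in p1-361, where 0.717% of all genes were called, 0.352% as lower, and Itgb7 was the 1 member called. It fell by 0.81 (1.75-fold, adjusted p = 0.0426) in p363-549, where 0.584% of genes were called, 0.405% as lower, and again no other member. With both fragments it fell by 1.16 (SE 0.18, 2.23-fold, adjusted p = 0.000634). The difference between p363-549 and p1-361 was 0.16 (95% interval -0.22 to 0.54). Against WT, Itgb7 fell by 0.96 in p1-361 (adjusted p = 0.0345; 0.126% of genes called, 0.0797% as lower) and by 1.15 with both fragments (adjusted p = 0.00297), and its difference in p363-549 was -0.80 (adjusted p = 0.123). In D361E it differed from VOID by -0.45 (adjusted p = 0.58) and from WT by -0.44 and was called in neither.

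The Itgb7 calls differed in how far they held. With both fragments against VOID the call held in all 14 alternative settings and in all 24 fits without 1 array. In p1-361 against VOID it was lost after normexp background correction (adjusted p = 0.0557) and without p1-361 replicate 3 (-0.88, adjusted p = 0.0548). In p363-549 against VOID it held in 5 of 14 settings and was lost without the 3 arrays (-0.74, adjusted p = 0.128) and without any 1 of 12 arrays: the 4 VOID arrays, WT replicates 1, 2 and 4, D361E replicate 2, p1-361 replicate 2 and p363-549 replicates 2, 3 and 4 (adjusted p 0.0539 to 0.144, differences -0.71 to -0.88). In p1-361 against WT it held in 6 of 14 settings and was lost without any 1 of VOID replicates 1 and 3, WT replicates 1, 2 and 4 and p1-361 replicates 2, 3 and 4 (adjusted p 0.0516 to 0.185, differences -0.87 to -0.98).

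Itga4, the alpha chain that pairs with Itgb7 or Itgb1, passed no test with the groups as labelled. Its level was 1.23, 0.91, 0.94 and 1.23 in VOID, 1.29, 1.33, 1.43 and 1.72 in WT, 1.50, 1.73, 2.01 and 2.39 in D361E, and 1.38, 1.47, 1.48 and 1.80 in p1-361. Every array of WT, D361E and p1-361 was above every VOID array. In p363-549 it was 1.56, 1.52, 1.52 and 0.67, and with both fragments 0.47, 0.62, 0.38 and 2.22. In these 2 groups replicate 4 lay on the other side of VOID from the other 3 arrays.

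The difference of Itga4 from VOID was 0.83 in D361E (95% interval 0.20 to 1.46, adjusted p = 0.441) and -0.16 with both fragments (-0.78 to 0.47, adjusted p = 0.802). Without the 3 arrays, the D361E difference was the same 0.83 with a smaller error (SE 0.16 against 0.30) and an adjusted p of 0.0061. On those 21 arrays Itga4 was also lower with both fragments, by 0.59 against VOID (adjusted p = 0.0337) and 0.95 against WT (adjusted p = 0.0015). Leaving out both fragments replicate 4 alone gave the latter an adjusted p of 0.0151. The probe of Itga4 that crosses an intron gave 0.68 in D361E against VOID and -0.46 with both fragments on all 24 arrays, neither of them called, and was well above background on 20 of 24 arrays. On it, too, p363-549 replicate 4 (-5.41, others -3.94 to -3.83) and both fragments replicate 4 (-3.75, others -5.35 to -5.17) lay apart. Of these low values, those of p363-549 replicate 4 and of both fragments replicates 1 and 3 were not well above background.

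Itgb1, Itgb2 and Itgal passed no test. Itgb1, the beta chain of VLA-4, had group means between 0.96 ± 0.15 (both fragments, SD, n = 4) and 1.23 ± 0.11 (VOID); its 4 arrays with both fragments, at 0.95, 0.75, 1.11 and 1.01, were all below VOID, at 1.37, 1.15, 1.25 and 1.15, a difference of -0.27 (adjusted p = 0.376). Its other probe gave -0.72 in that comparison (adjusted p = 0.328 over 19523 probes) and its lowest arrays were both fragments replicate 4 (-1.73) and p363-549 replicate 4 (-1.52). Low values of replicate 4 on that probe were not confined to the fragment groups. D361E replicate 4 was at -1.24, and replicate 4 was also the lowest array of VOID (-0.39) and of WT (-0.51). In p1-361 the lowest was replicate 2 (-1.04). Itgb2, the beta chain of LFA-1, ranged from 1.47 to 2.65 over the 24 arrays, with group means from 1.99 ± 0.36 (both fragments) to 2.41 ± 0.19 (p1-361). Itgal, its alpha partner, had group means from -0.81 ± 0.39 (p363-549) to -0.61 ± 0.09 (both fragments). The 95% intervals of the Itgal differences from VOID lay between -0.41 and 0.46 in all 5 comparisons with VOID.

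Selplg, which encodes the selectin ligand PSGL-1, was lower with both fragments. Its level was 0.90, 1.25, 1.17 and 0.98 in VOID, 0.82, 1.14, 0.92 and 0.92 in WT, and 1.08, 0.99, 0.92 and 0.94 in D361E. It was 0.68, 0.89, 0.58 and 0.82 in p1-361, 0.60, 0.99, 0.71 and 0.26 in p363-549, and -0.10, -0.22, 0.23 and 0.76 with both fragments. The 4 arrays of both fragments were below all VOID and all WT arrays, and the highest of them, replicate 4, lay among the p1-361 arrays.

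Selplg fell by 0.91 with both fragments against VOID (SE 0.18, 1.87-fold, adjusted p = 0.00375) and by 0.78 against WT (1.72-fold, adjusted p = 0.0316). In p1-361 all 4 arrays were below VOID, with a difference of -0.33 (adjusted p = 0.713), and in p363-549 it was -0.43 (adjusted p = 0.57). The fall against VOID held in all 24 fits without 1 array and was 1.10 without the 3 arrays. The fall against WT was lost without any 1 of the 4 WT arrays and both fragments replicates 1, 2 and 3 (adjusted p 0.0542 to 0.189). It was lost after normexp correction (-0.70, adjusted p = 0.196), with no filter on dim probes (adjusted p = 0.0813) and with the mean of the probes of a gene (-0.71, adjusted p = 0.0949), and it was 0.98 without the 3 arrays (where 5.54% of genes were called). The second probe gave -0.78 against VOID with an adjusted p of 0.0855 over 19523 probes.

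Cd44, the hyaluronan receptor, passed no test. Its group means ran from 1.10 ± 0.40 with both fragments (SD, n = 4) over 1.23 ± 0.25 in p1-361, 1.23 ± 0.27 in p363-549, 1.31 ± 0.22 in WT and 1.38 ± 0.33 in VOID to 1.64 ± 0.10 in D361E. All groups overlapped with VOID. Of its other 3 probes, 1 was well above background on 6 of 24 arrays and did not pass the filter, and 1 that lies elsewhere in the transcript and was above background on 22 arrays gave -0.98 with both fragments against VOID (adjusted p = 0.259 over 19523 probes). The remaining probe was well above background on all 24 arrays, with group means of 0.68 ± 0.29 with both fragments and 1.01 ± 0.35 in VOID.

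Cxcr4, the receptor for Cxcl12, was lower with both fragments, and its signal was dim throughout, with processed signals of 94.2 to 304. Its level was -1.33, -2.12, -1.88 and -2.10 in VOID and -1.75, -1.88, -1.78 and -1.51 in D361E. It was -2.94, -2.79, -2.46 and -2.18 in WT, -2.63, -2.63, -2.77 and -2.72 in p1-361, and -2.50, -2.72, -2.34 and -2.62 in p363-549. With both fragments it was -3.04, -3.42, -3.12 and -2.23. The VOID and D361E arrays were above all arrays of the other 4 groups, with the lowest VOID array at -2.12 and the highest of the others, in WT, at -2.18.

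With both fragments Cxcr4 fell by 1.09 against VOID (SE 0.22, 2.14-fold, adjusted p = 0.00419). The differences from VOID in p1-361 (-0.83, adjusted p = 0.0927), WT (-0.73, adjusted p = 0.24) and p363-549 (-0.69, adjusted p = 0.246) had the same sign and missed the threshold. D361E differed from VOID by 0.13 (95% interval -0.32 to 0.57) and from WT by 0.86 (adjusted p = 0.229), with every D361E array above every WT array. Without the 3 arrays, Cxcr4 was also called in p1-361 against VOID (-0.82, adjusted p = 0.0304) and in D361E against WT (0.86, adjusted p = 0.0366), and the fall with both fragments was 1.34. Leaving out both fragments replicate 4 alone gave the p1-361 difference from VOID an adjusted p of 0.0232. After normexp background correction, which adds an offset of 50 to every signal, the difference with both fragments was -0.60, with an adjusted p of 0.394. Such an offset narrows log2 differences of dim signals. Its part in this change was not tested.

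Ccr7, the lymph node homing receptor, had the largest log2 difference of the 9 with both fragments, and the widest spread. Its level was -0.90, -0.24, 0.89 and -0.39 in VOID, 0.24, 0.61, 0.97 and -0.18 in WT, and -0.19, -0.46, 0.32 and -0.66 in D361E. It was -0.46, -0.19, 0.09 and -1.74 in p1-361, -1.25, -1.06, 0.45 and -3.48 in p363-549, and -3.77, -4.17, -2.59 and -1.08 with both fragments. All arrays of both fragments were below all VOID and WT arrays, and in each fragment group replicate 4 was the array farthest from the other 3. The within-group SD of Ccr7, pooled over the groups, was 1.02, against a median of 0.32 over all genes tested, and 98.4% of genes had a smaller one.

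Ccr7 fell by 2.75 with both fragments against VOID (SE 0.67, 6.72-fold, adjusted p = 0.0195) and by 3.32 against WT (9.97-fold, adjusted p = 0.0185). Without the 3 arrays the differences were -3.36 and -3.93. The call against VOID was lost without VOID replicate 3 (-2.40), both fragments replicate 1 (-2.46) or both fragments replicate 2 (-2.32), with adjusted p 0.0744 to 0.0982, and after normexp correction (-1.81, adjusted p = 0.0781). The call against WT was lost without WT replicate 2 (-3.25), WT replicate 3 (-3.13), both fragments replicate 1 (-3.03) or replicate 2 (-2.89), with adjusted p 0.0634 to 0.114, and after normexp correction (-2.35, adjusted p = 0.0564). In p363-549 the difference was -1.18 from VOID (adjusted p = 0.902) and -1.75 from WT (adjusted p = 0.876), and the 95% interval of the difference of p1-361 from VOID, -1.81 to 0.98, was wide.

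**Figure D2:**
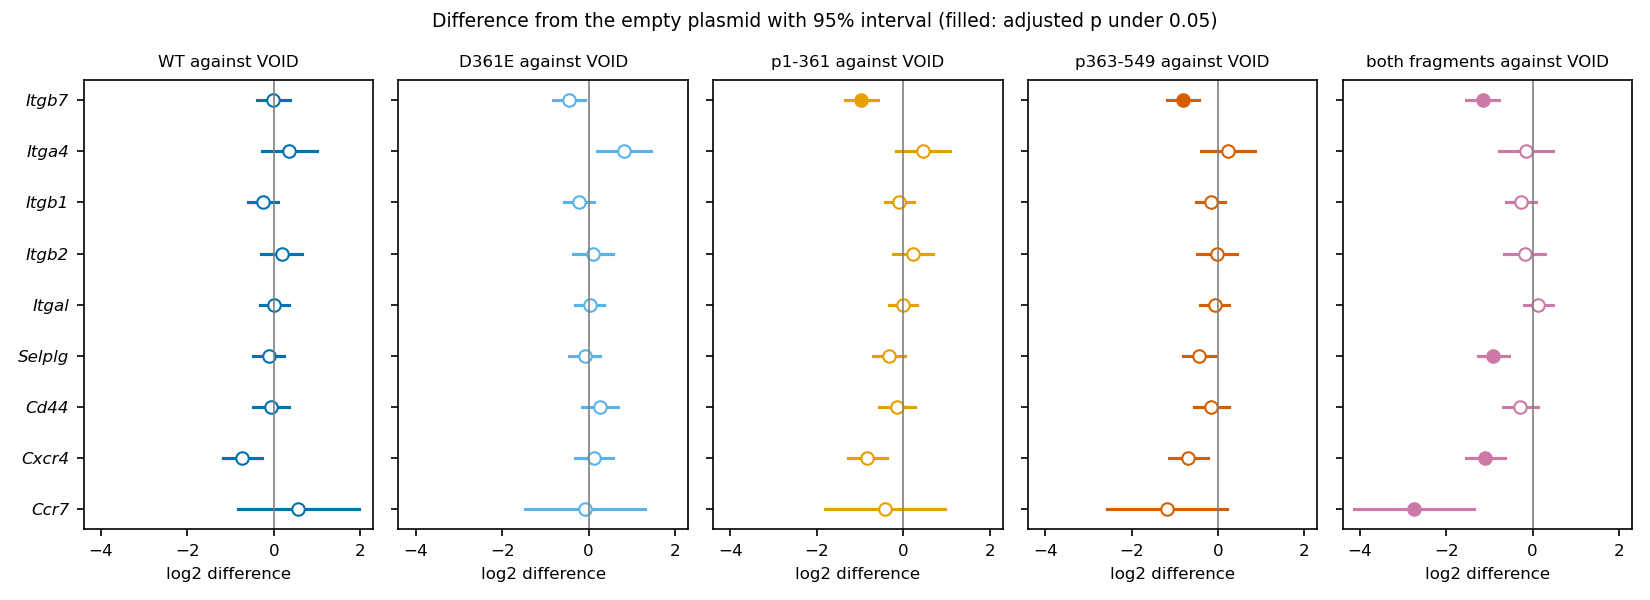
Each panel plots 1 comparison with VOID, with the log2 difference on the horizontal axis, the 9 genes on the vertical axis and bars for the 95% interval; filled points passed the test at an adjusted p under 0.05. Filled points are Itgb7 in the 3 fragment panels and Selplg, Cxcr4 and Ccr7 with both fragments, and the bars of Ccr7 are the widest.

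The comparisons below share the VOID or the WT arrays, so they are not independent of each other. Because the members were chosen with earlier results known, a larger share among them than among all genes is a description only. With both fragments against VOID, 4 of 9 members were called lower, where 4.46% of all genes were called and 2.51% called lower; the median difference of the 9 was -0.28 and that of all genes tested -0.01. The 4 arrays with both fragments were all below the 4 VOID arrays for 5 of 9 members, the 4 called and Itgb1, and for 4.54% of all genes. When the fit held only the 8 arrays compared, 1 of 9 was called, Itgb7, and the adjusted p was 0.0892 for Selplg, 0.0989 for Cxcr4 and 0.0714 for Ccr7. Against WT it was 3 of 9 (Itgb7, Selplg and Ccr7), where 1.06% of genes were called and 0.95% called lower, with a median of -0.37 and one of 0.03 over all genes. With only the 8 arrays compared the adjusted p there was 0.0506 for Itgb7, 0.22 for Selplg and 0.078 for Ccr7. In p1-361 against VOID the median was -0.15 (all genes -0.01), and in p363-549 against VOID -0.17 (all genes 0.03). In p1-361 against WT it was -0.08 (all genes 0.03).

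Arrays of a group can lie wholly above or below those of another without the difference passing the test. Against VOID, all arrays were lower for 1 member in WT (Cxcr4; 2.41% of all genes), 3 in p1-361 (Itgb7, Selplg and Cxcr4; 2.29%) and 2 in p363-549 (Itgb7 and Cxcr4; 1.65%), and all were higher for Itga4 in WT (2.34%), D361E (2.76%) and p1-361 (2.46%). Against WT, all arrays were lower for Itgb7 in p1-361 (1.34%) and p363-549 (0.944%) and for Itgb7, Selplg and Ccr7 with both fragments (3.29%), and higher for Cxcr4 in D361E (1.98%).

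For 0 of 9 members a difference passed limma's test in WT against VOID (0.485% of genes called), D361E against VOID (0.657%), D361E against WT (0.0797%), p363-549 against WT (0.146%), p363-549 against p1-361 (0%) and the test of additivity (0.212%). At an unadjusted p under 0.05 the counts were 1 (Cxcr4), 2 (Itgb7 and Itga4), 2 (Itgb7 and Cxcr4), 2 (Itgb7 and Ccr7), 0 and 1 (Itgb7) in that order, where 5.67%, 6.3%, 3.07%, 5.19%, 1.85% and 14.3% of all genes had such a p.

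The additivity test asked whether the difference of both fragments from VOID equals the sum of the differences of the single ones. For Itgb7 the single differences summed to -1.78 and both fragments gave -1.16, so the departure was 0.62 (95% interval 0.08 to 1.15, adjusted p = 0.309). For Ccr7 the sum was -1.60 and both gave -2.75, with a departure of -1.15 (-3.12 to 0.82). For Cxcr4 the sum was -1.51 against -1.09, and for Selplg -0.76 against -0.91. Leaving out both fragments replicate 4 alone gave Itga4 a departure of -1.28 (adjusted p = 0.0335). Without the 3 arrays, 2 members passed: Itga4 (-1.41, adjusted p = 0.0019) and Ccr7 (-2.86, adjusted p = 0.0126), where 10.6% of all genes did.

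**Figure D3:**
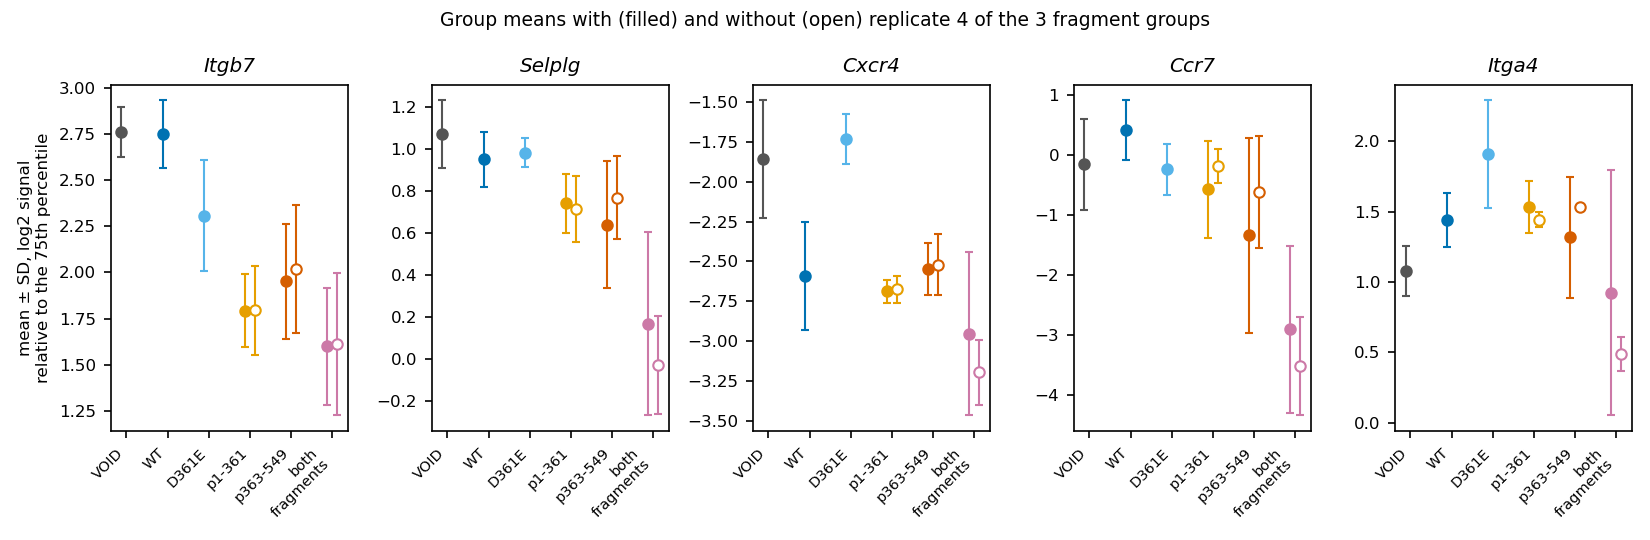
Each panel plots 1 gene, with the mean ± SD of the log2 signal relative to the 75th percentile on the vertical axis for each group, filled for 4 arrays and open without replicate 4 of the 3 fragment groups. Ccr7 shifts from -1.34 to -0.62 in p363-549 and from -2.91 to -3.51 with both fragments, and Itga4 from 0.92 to 0.49 with both fragments.

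Without the 3 arrays, 5 of 9 members were called with both fragments against VOID (9.58% of genes called) and 4 of 9 against WT (5.54%); Itga4 was the added one in each. The counts were 1 in D361E against VOID (Itga4; 1.63% of genes called), 1 in D361E against WT (Cxcr4; 0.545%), 2 in p1-361 against VOID (Itgb7 and Cxcr4; 2.67%) and 1 in p1-361 against WT (Itgb7; 0.697%). Itgb7 lost its call in p363-549 against VOID (0.883%). In the F test 5 of 9 passed, Itga4 among them, where 9.86% of all genes did.

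The arrays lay on 6 slides of 4, each with arrays of 4 groups. VOID and both fragments shared 2 slides, and within them Itgb7 differed by -0.50 and -1.50, Selplg by -0.75 and -1.35, Cxcr4 by -1.01 and -0.93, and Ccr7 by -2.21 and -3.54. Within the 4 sets of consecutive sample numbers, each of these 4 genes was lower with both fragments than in VOID in 4 of 4. The smallest differences of Cxcr4 (-0.13), Selplg (-0.22) and Ccr7 (-0.69) were all in the set that holds replicate 4. With slide as a fixed block, the 4 calls against VOID held (adjusted p 0.0049 for Itgb7, 0.0104 for Selplg, 0.0209 for Cxcr4 and 0.0442 for Ccr7). The block ended the calls of Selplg (-0.74, adjusted p = 0.116) and Ccr7 (-3.12, adjusted p = 0.1) with both fragments against WT. It also ended those of Itgb7 in p363-549 against VOID (-0.77, adjusted p = 0.1) and in p1-361 against WT (-0.96, adjusted p = 0.0659).

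**Figure D4:**
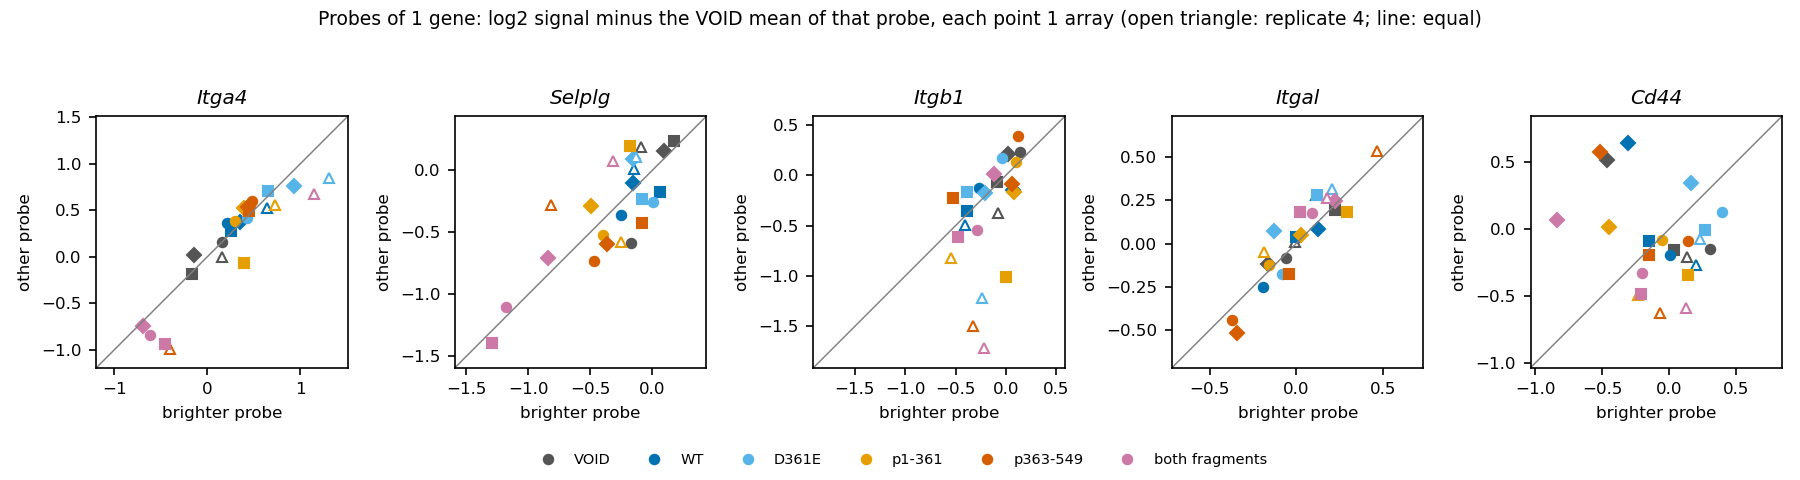
Each panel plots 1 gene with more than 1 probe that passed the filter: the log2 signal of the brighter probe minus its VOID mean on the horizontal axis and the same for another probe on the vertical axis, with 1 point for each array and a line of equality. The probes of Itga4 and Itgal follow the line, those of Itgb1 part on several replicate 4 arrays, and those of Cd44 lie off it.

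Of 92 other genes of adhesion and homing that were listed, 91 are on the array and 56 were tested. Of these, 8 passed with both fragments against VOID, 3 higher and 5 lower, where 4.46% of all genes were called, 2.51% as lower (median difference -0.08, all genes -0.01). The 5 lower genes include Gpr183, an oxysterol receptor that guides B cells and dendritic cells, which was well above background on 4 of 4 VOID arrays, 3 D361E arrays, 1 WT array and 0 arrays of each fragment group. It passed the filter on dim probes through VOID alone, so its lower values elsewhere were partly fixed by that filter. Its call is counted but not read as a result, and neither its fold nor its p-value is given. Podxl, a sialomucin that can carry selectin ligands, fell by 2.94 (adjusted p = 0.000218), and Fut7, the fucosyltransferase that completes selectin ligands, fell by 2.61 (adjusted p = 0.0014). Ezr, which links membrane proteins such as CD44 to actin, rose by 0.97 (adjusted p = 0.00953). Podxl was well above background on 3 of 4 arrays with both fragments. Its mean was -1.19 in VOID, -2.28 in WT, -2.53 in D361E, -2.69 in p1-361 and -2.46 in p363-549. In those groups the mean of Fut7 was also below VOID and that of Ezr above it. None of these differences of WT, D361E, p1-361 or p363-549 from VOID was called.

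Against VOID, the 1 listed gene counted as lower in each of WT, p1-361 and p363-549 was Gpr183. The same filter partly fixed that outcome, so it is not read as a result. Sipa1, which turns off the integrin activator Rap1, rose by 0.46 in WT against VOID (adjusted p = 0.0362), where 0.485% of all genes were called. It was also called higher with both fragments against VOID (0.35, limma adjusted p = 0.046), where 4.46% of all genes were called. Its group mean was 4.13 in VOID and between 4.46 (p363-549) and 4.59 (WT) in the other groups, so the rise was not particular to WT. With both fragments against WT, where 1.06% of all genes were called, Rasgrp2, an activator of Rap1, fell by 0.75 (adjusted p = 0.0245), Podxl fell by 1.86 (adjusted p = 0.0309) and Fut7 fell by 1.83 (adjusted p = 0.0499). In D361E against VOID, D361E against WT, p1-361 against WT, p363-549 against WT, p363-549 against p1-361 and the additivity test, 0 of 56 passed limma's test at an adjusted p under 0.05, and 9, 4, 5, 3, 2 and 10 had an unadjusted p under 0.05, where 6.3%, 3.07%, 3.02%, 5.19%, 1.85% and 14.3% of all genes did.

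Among 6 tested markers of mast cells and basophils, 4 were lower with both fragments against VOID (4.46% of all genes called, 2.51% as lower). The summed level of the 7 genes of that list, as a multiple of the 75th percentile, was 8.11 to 23.3 in VOID, 7.21 to 12.6 in WT, 2.91 to 3.99 in D361E, 3.18 to 9.01 in p1-361, 0.588 to 5.5 in p363-549 and 0.585 to 4.19 with both fragments. Of these 7, 6 were well above background on all 4 arrays in VOID, 5 in WT and 4 in each of D361E and p1-361. In each of p363-549 and both fragments it was 3. A marker that passed the filter through VOID alone has the same limit as Gpr183. Any such marker is included in the counts of lower mast cell and basophil markers, which are therefore not read as a result. The count of lower markers was 3 of 6 with both fragments against WT (1.06% of all genes called). Against VOID it was 2 of 6 in D361E (0.657%) and 1 of 6 in each of WT (0.485%), p1-361 (0.717%) and p363-549 (0.584%). Ms4a2 was well above background on none of the 24 arrays. Of the other marker lists, with both fragments against VOID and the same shares of all genes, 1 of 4 monocyte and macrophage markers was higher, 3 of 6 erythroid and megakaryocyte markers were lower and 1 was higher, 1 of 5 T and NK cell markers was lower, and of 9 haematopoietic markers 1 was higher and 1 lower. Some of these changes were not limited to both fragments. Against VOID, 2 of 6 erythroid and megakaryocyte markers were lower in WT (0.485% of all genes called) and p1-361 (0.717%), 1 in D361E (0.657%) and 0 in p363-549 (0.584%). Of 4 monocyte and macrophage markers, 1 was higher in each of WT, p1-361 and p363-549 and 0 in D361E. The part of these markers in the differences of the 9 genes was not tested.

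Over the 24 arrays, the genes most like Itgb7 among 13465 searched were Lat (r = 0.89), Tnfsf14 (0.86) and Msh5 (0.84). Those most like Selplg were Csf2rb (0.94), Galnt3 (0.93) and Abca2 (0.93), and those most like Cxcr4 were Gmip (0.85), Ankrd9 (0.83) and Ccl6 (0.82). Those most like Ccr7 were Saa3, Ptgs1 and Rab44 (0.94 each). Saa3 had a group mean of 4.34 in WT and -1.89 with both fragments, and Gmip one of 0.73 in VOID, 0.71 in D361E and 0.26 in WT. These correlations are a description: the 24 arrays share slides and groups, and their replicate 4 arrays enter each of them.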

How the data were processed

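Total RNA of 24 samples was labelled with Cy3 and read on 1-colour Agilent arrays. The deposited scanner files hold the processed signal of each spot as an intensity, background subtracted and spatially detrended by Agilent Feature Extraction 10.7.3.1 per the submitters' processing notes, and other quality marks of 0 or 1 per the file headers. The deposited series table held the same intensities. Spots marked as outliers (185 to 312 an array) were left out, spots of a probe were averaged, and log2 of the signal minus log2 of the 75th percentile of the array was taken from the deposited intensities. The filter kept a probe where 1 group or more had it well above background throughout, and each gene was read by its brightest such probe over the 24 arrays.

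Groups were compared with limma 3.58.1 in R 4.3.3 (statmod 1.5.0 for random blocks): 1 mean a group over all 24 arrays, 11 comparisons and an F test, 2-sided, with Benjamini-Hochberg adjustment over 15059 genes and a threshold of 0.05. The code was tested on simulated data. The members and lists were chosen with earlier results of these data known. All 9 members are named, and of the other adhesion genes at most the 4 with the smallest adjusted p in a comparison. For each member past the F test the 3 genes of highest Pearson r over 24 arrays are named, among those well above background on all 24. The alternatives were background correction (normexp with an offset of 50), scaling, filters, probes, slide and set blocks, array weights and arrays left out.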

Additional observations from a re-analysis of the deposited data

Results flagged for a closer look

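In 54 groups of 4 arrays, 3 held an array whose gap to the nearest of the others, divided by the range of the group, was above Dixon's 95% critical value. Chance gives about 1 such group in 20. The 54 groups share arrays and are not independent of each other, and whether chance gave the 3 flagged was not tested. Itga4 in p363-549 replicate 4 was at 0.67, with the other 3 arrays at 1.52 to 1.56. Itga4 in both fragments replicate 4 was at 2.22, with the other 3 at 0.38 to 0.62. Itgb1 in p1-361 replicate 4 was at 0.68, with the other 3 at 1.23 to 1.33. These are the 3 arrays that correlated best with another group over other genes.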

How the results depend on the processing

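With both fragments against VOID, the count of members called was 4 under the analysis as reported and 1 to 6 elsewhere; counts that moved furthest from those reported follow. After normexp background correction the counts were 0 in p1-361 against VOID, 0 in p363-549 against VOID, 2 with both fragments against VOID, 0 in p1-361 against WT, 1 with both fragments against WT and 1 in the F test. Quantile normalization, the 75th percentile over detected probes, no filter on dim probes, only probes above background on all 24 arrays, and slide as a fixed or a random block each gave 0 in p363-549 against VOID and 0 in p1-361 against WT; no filter also gave 2 in the F test, and the fixed block 1 with both fragments against WT. Sets of title numbers as a block gave 2 in p1-361 against VOID and 1 in p363-549 against WT. With only the arrays compared the counts were 0 in p363-549 against VOID, 1 with both fragments against VOID, 0 in p1-361 against WT and 0 with both fragments against WT. Array weights gave 1 in WT against VOID, 1 in D361E against VOID, 2 in p1-361 against VOID, 3 in D361E against WT, 2 in p363-549 against WT, 6 with both fragments against WT and 3 for additivity. Without the 3 arrays the counts were 1 in D361E against VOID, 2 in p1-361 against VOID, 0 in p363-549 against VOID, 1 in D361E against WT and 2 for additivity. Without 1 array at a time, counts ran from 3 to 4 with both fragments against VOID, 1 to 4 with both fragments against WT, 0 to 2 in p1-361 against VOID, 0 to 1 in p363-549 against VOID, in p1-361 against WT and for additivity, and 2 to 5 in the F test. The cause of these changes was not tested. After normexp the calls over all genes with both fragments against VOID were 69 higher and 145 lower, against 293 and 378. No member difference that was called changed sign. The labels give no replicate numbers, so the one pairing tried was that block on the sets of title numbers. Limits: 4 arrays a group limit the precision, and Cxcr4 and Ccr7 had dim signals, down to 94.2 and 65.8.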
